A study of Mus musculus with 6 samples.

Results

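The genes described here make ribosomes: 37 mouse genes for nucleolar processing factors, small nucleolar ribonucleoproteins (snoRNPs) and RNA polymerase I, given by name. The list was chosen with earlier results of these data known, so it is not independent of them. Of the 37 genes, 36 were read by at least 1 probe set that the platform annotation pairs with a single gene. All 36 passed the filter on dim probe sets. The remaining one, Mrto4, is paired only with a probe set shared with pseudogenes of the same name and was not analysed here. The 36 genes stand among 12994 genes tested in all. They were measured on 6 Affymetrix arrays of small intestinal epithelial cells, loosened from the lamina propria with EDTA, from C57BL/6 mice 2 weeks old. The 3 replacement samples have the genotype Ecadflox/Ncad;Vil-Cre: a floxed E-cadherin allele, an allele that carries N-cadherin, and a Cre recombinase driven by the villin promoter, which is active in gut epithelium. E-cadherin is the adhesion molecule of epithelial junctions, and N-cadherin is its relative of neural and mesenchymal cells. The 3 control samples are labelled only as controls, and the series describes them as E-cadherin-positive littermates, so the alleles and Cre they carried are not given in the sources used here. Whether each sample came from its own animal is not given either, and a p-value here covers the spread among these arrays only, which may be technical.

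Ribosome production starts in the nucleolus, where RNA polymerase I transcribes one long precursor that holds the 18S, 5.8S and 28S ribosomal RNAs. Box C/D snoRNPs methylate this precursor and H/ACA snoRNPs convert chosen uridines to pseudouridine, while separate sets of factors cut, fold and export the small and the large subunit. In the intestine the pathway is most active in the dividing cells of the crypts, and Myc, a transcription factor that binds the sequence CACGTG together with its partner Max, is a known activator of many of its genes.

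The promoter stretches of the members that passed the test are shown first, along with that of Nop2, whose stretch holds CACGTG. Of the 6 members past the test, 4 have an entry in the RefSeq promoter table (GRCm38.p6). Each line gives the 120 bases before the annotated start, 5′ to 3′ on the gene's strand, and capitals mark CACGTG or CCGGAAG, the core read by ETS factors, on either strand.
Bysl: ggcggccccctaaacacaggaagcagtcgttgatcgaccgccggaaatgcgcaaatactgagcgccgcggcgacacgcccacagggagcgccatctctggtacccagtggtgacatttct
Nolc1: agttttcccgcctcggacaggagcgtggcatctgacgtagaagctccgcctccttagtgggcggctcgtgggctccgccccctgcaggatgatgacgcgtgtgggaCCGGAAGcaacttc
Nop56: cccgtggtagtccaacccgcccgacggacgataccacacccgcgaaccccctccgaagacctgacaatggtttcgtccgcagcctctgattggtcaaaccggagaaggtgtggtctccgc
Wdr75: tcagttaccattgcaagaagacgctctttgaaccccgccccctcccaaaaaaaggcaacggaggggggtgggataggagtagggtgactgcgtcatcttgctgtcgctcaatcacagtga
Nop2: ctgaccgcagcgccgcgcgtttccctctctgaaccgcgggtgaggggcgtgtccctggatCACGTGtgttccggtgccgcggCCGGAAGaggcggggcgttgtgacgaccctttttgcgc
The stretches lie at chr17:47611493-47611612 on the minus strand for Bysl, and on the plus strand at chr19:46075727-46075846 for Nolc1, chr2:130274292-130274411 for Nop56, chr1:45795046-45795165 for Wdr75 and chr6:125131763-125131882 for Nop2. Over the whole table window, which runs from 250 bases before to 50 after the start, CACGTG was found in 5 of the 31 members with an entry (16.1%), namely Nop2, Pes1, Pno1, Utp20 and Wdr43, and in 11.2% of the tested genes with an entry. None of these 5 passed the test, and none of the 4 members past the test with an entry held CACGTG in the window. CCGGAAG was found in 9 of 31 members (29.0%), against 18.6% of the tested genes with an entry. Among the 115 other ribosome biogenesis genes with an entry (lists below) the shares were 18.3% for CACGTG and 43.5% for CCGGAAG. A match is a description of letters only.

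Expression of the ribosome biogenesis genes was higher in the samples labelled with the replacement genotype: 6 of 36 rose and none fell at a limma adjusted p under 0.05 over all genes. Values are probe set intensities, and each difference is the mean log2 value in the replacement samples minus that in the controls. The 6 genes were Rrs1, Nolc1, Wdr75, Bysl, Nop56 and Bop1, with differences between 1.998-fold and 2.498-fold. These 6 are 16.7% of the members, where 4.46% of all genes passed upwards and 4.66% downwards (9.12% in either direction). Without adjustment, 21 members had a p under 0.05 with higher expression and 0 with lower, beside 1482 and 1677 of all 12994 genes. In 28 of 36 members every replacement array lay over every control array, which is 77.8% against 17.8% of all genes, and in none did every replacement array lie under every control array (18.8% of all genes). The median difference of the members was 0.64 (1.56-fold) and that of all genes -0.02, and 34 of 36 members had a difference over 0, compared with 48% of all genes. In bulk RNA a change in the share of the cells that express these genes and a change in RNA per cell cannot be told apart.

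**Figure D1:**
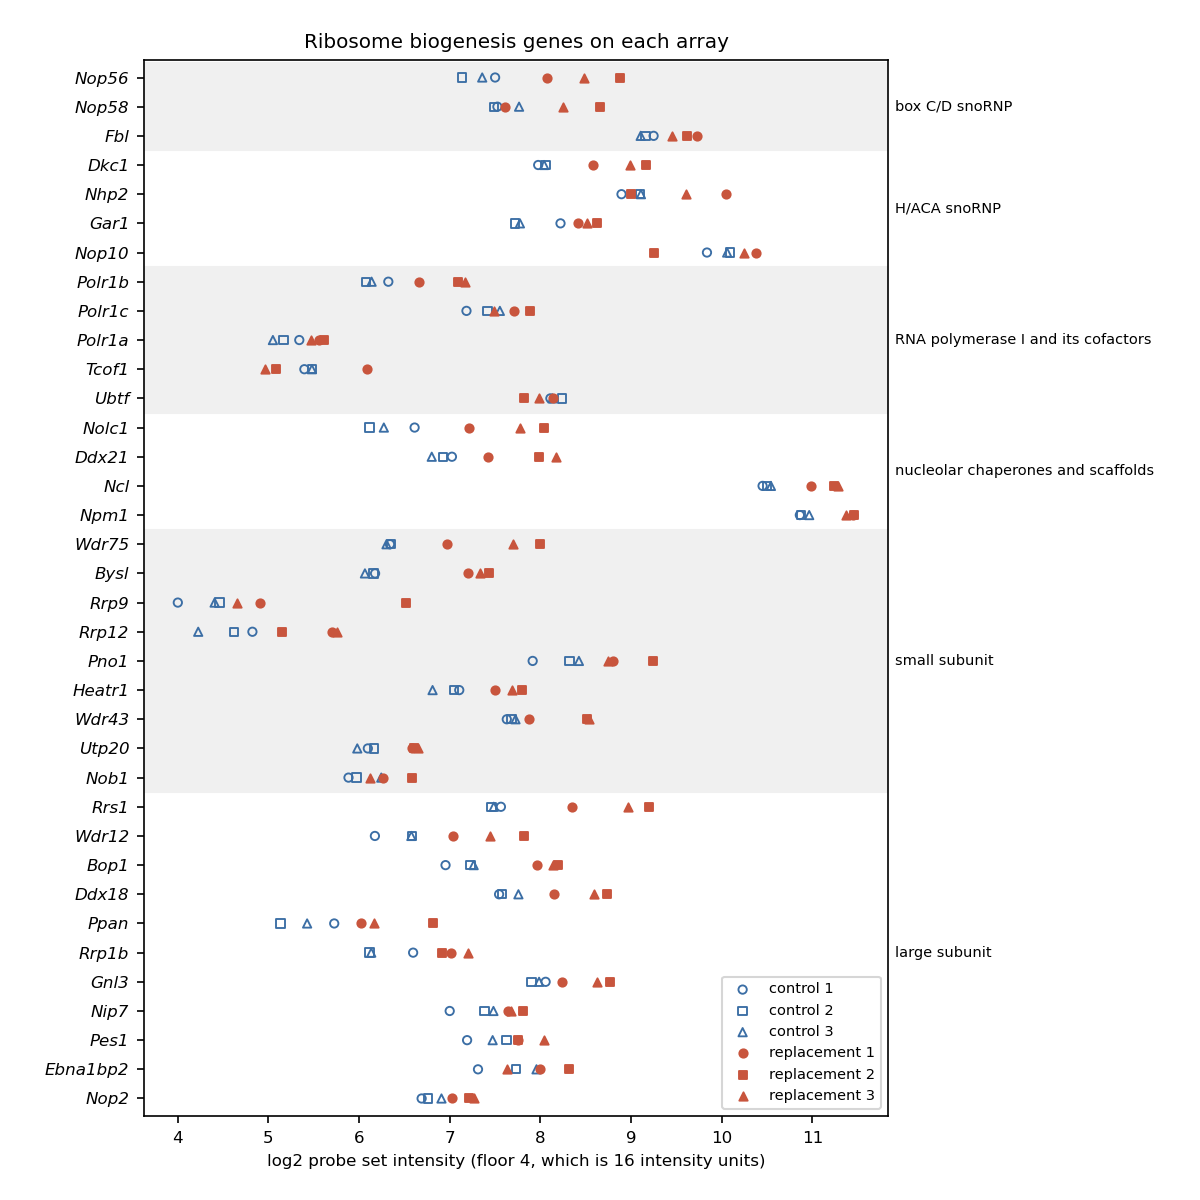
Log2 probe set intensity of the 36 measured members (rows, grouped by role) on each of the 6 arrays, with open symbols for control and filled symbols for replacement arrays. In 28 of the 36 rows all 3 filled symbols lie to the right of all 3 open ones.

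Control 2 and control 3 were near copies: over 5109 bright probe sets their log2 ratio had an SD of 0.115, where other pairs of one group had 0.347 or more. The ratio of the 18 probe sets for spiked hybridization controls had an SD of 0.0824 in this pair and of 0.0812 to 0.134 over all pairs. They were averaged and counted as 1 sample, which leaves n = 2 control and n = 3 replacement replicates. All 6 member calls ended without control 1, without control 2 and control 3 together, without replacement 2 and without replacement 3, and 12 members passed without replacement 1. Without the filter on dim probe sets 3 members passed, of the 6 only Bysl, and without the floor Bysl alone. Leaving out control 1, 8 of all genes passed upwards and 3 downwards; leaving out the near copies, 3 passed upwards and 1 downwards, and the calls on all other genes named here as past the test ended in both of these fits. The size of the shift moved less, with a median member difference of 0.57 to 0.75 over those fits. The deposited values had a trimmed mean of 100 on each array. Cdh1, the E-cadherin gene, had intensities of 2757, 2335 and 2204 in the controls and 1073, 1175 and 1357 in the replacement samples, and both Cdh2 probe sets were at 13.5 or less on all arrays, so no N-cadherin signal was measured in any sample. Whether those probe sets match the introduced sequence is not stated in the labels. By Xist and Y-linked transcripts, control 1, replacement 2 and replacement 3 were female and the other arrays male.

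The box C/D snoRNP members are the proteins of the methylation guide particles. Nop56, a core protein of the particle, had intensities of 181.0, 140.3 and 164.0 in control 1 to 3 and 268.8, 471.9 and 356.7 in replacement 1 to 3. All replacement arrays were higher than all controls, and Nop56 rose by 1.10 (SE 0.284, n = 2 and 3, limma adjusted p = 0.0419). Its partner Nop58 had 184.2, 179.7 and 217.4 in the controls and 194.5, 403.2 and 303.4 in the replacement samples (difference 0.59, SE 0.314, adjusted p = 0.289). Replacement 1 lay within the control range of Nop58, while the other replacement arrays were above it. Fbl (fibrillarin), the methyltransferase, had 608.0, 571.8 and 550.8 against 849.5, 785.5 and 698.7, groups that did not overlap, with a difference of 0.41 (SE 0.231) that did not pass (adjusted p = 0.319).

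None of the 4 H/ACA snoRNP proteins passed. Dkc1 (dyskerin), the pseudouridine synthase, came nearest, with 251.6, 266.4 and 263.3 in the controls and 381.4, 571.7 and 507.6 in the replacement samples (difference 0.90, SE 0.255, adjusted p = 0.0594). Gar1 had 298.4, 210.8 and 218.8 against 339.9, 394.6 and 365.9 (0.53, SE 0.247, adjusted p = 0.223). For both genes the groups did not overlap. Nhp2 had 475.7, 547.5 and 551.9 in the controls and 1061, 513.4 and 777.8 in the replacement samples, and Nop10 had 914.4, 1091 and 1067 against 1333, 612.0 and 1218. Nhp2 and Nop10, which code for the small proteins of the particle, were lowest among the replacement arrays in replacement 2, where Nop56, Nop58 and Dkc1 were highest. Their differences were 0.55 (SE 0.316, adjusted p = 0.323) and 0.01 (SE 0.343, adjusted p = 0.994).

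RNA polymerase I and its cofactors held no member past the test. Polr1b, the second largest subunit, had 80.0, 67.6 and 70.4 in the controls and 100.9, 136.7 and 144.1 in the replacement samples, without overlap (0.76, SE 0.254, adjusted p = 0.1003). The largest subunit, Polr1a, had 40.5, 35.9 and 33.1 against 47.0, 49.0 and 44.4, also without overlap, but with a difference of 0.32 (SE 0.229, adjusted p = 0.438). Polr1c, which RNA polymerase III shares, had 145.4, 170.8 and 187.7 against 209.8, 235.7 and 180.0, with replacement 3 inside the control range (0.36, SE 0.244, adjusted p = 0.417).

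Ubtf, which opens the ribosomal DNA for the polymerase, and Tcof1 (treacle), which recruits it, were the 2 members with a difference under 0. Ubtf had 276.2, 302.6 and 280.6 in the controls and 282.8, 226.2 and 253.8 in the replacement samples (-0.16, SE 0.232, adjusted p = 0.727). Its other, dimmer probe set, with 2 control arrays under the floor of 16, gave at least 0.96, and both carry the suffix that marks several transcripts. Tcof1 had 42.1, 44.6 and 44.6 against 68.0, 33.9 and 31.1, so replacement 1 lay over and the other replacement arrays under all controls (-0.06, SE 0.342, adjusted p = 0.939). Its 2 other probe sets gave 0.63 and 0.62.

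Among the nucleolar chaperones and scaffolds Nolc1 rose. Nolc1 shuttles between nucleolus and cytoplasm and binds snoRNPs. It had 97.8, 69.3 and 77.3 in the controls and 148.2, 264.0 and 219.1 in the replacement samples, a difference of 1.27 (SE 0.297, adjusted p = 0.0286), and all 3 of its probe sets gave differences over 0 (0.78 to 1.27). Ddx21, an RNA helicase of the nucleolus, had 130.1, 121.6 and 111.5 against 171.9, 253.9 and 288.1, without overlap, and did not pass (0.92, SE 0.277, adjusted p = 0.0718). Its second, dimmer probe set, which may read several transcripts, gave 1.11 and passed with every probe set tested on its own (limma adjusted p = 0.0302). Npm1 (nucleophosmin), a chaperone that forms the outer layer of the nucleolus, had 1860, 1874 and 1998 against 2783, 2818 and 2643. Its groups lay apart with little spread within either, and the difference of 0.53 did not pass (SE 0.223, adjusted p = 0.174).

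Ncl (nucleolin), which binds the precursor RNA, had 1399, 1445 and 1491 in the controls and 2020, 2422 and 2483 in the replacement samples on its brightest probe set (0.68, SE 0.232, adjusted p = 0.105). Its size depended on the probe set: the 4 kept probe sets of Ncl gave differences of 0.68 to 1.67, the brightest being the smallest. With every probe set tested on its own in limma, 2 of the 4 Ncl probe sets passed, one with 1.28 (adjusted p = 0.0484) and one, which may cross-hybridize by its suffix, with 1.67 (adjusted p = 0.0191).

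Small subunit factors gave 2 calls among 9 measured members, and in 8 of the 9 all replacement arrays lay over all controls. Over all genes 4.46% passed upwards, and 17.8% had every replacement array over every control array. Wdr75, part of the complex that joins the precursor during its transcription, had 81.0, 81.8 and 78.9 in the controls and 124.9, 255.7 and 208.3 in the replacement samples. All controls lay within a few units and the replacement arrays spread widely above them (1.22, SE 0.314, adjusted p = 0.0419). Its probe set may read several transcripts, and another, dimmer one, with 2 control arrays under the floor, gave at least 0.45. Bysl (bystin), needed for late steps of the small subunit, had 72.3, 71.5 and 66.9 against 147.1, 173.0 and 161.3. Bysl had the smallest p of all members (1.18, SE 0.227, adjusted p = 0.0127), and a separate probe set gave 1.11.

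Rrp9, a protein of the U3 snoRNP that directs early cuts, had 11, 22 and 21.2 in the controls and 29.9, 91.4 and 25.1 in the replacement samples. With control 1 under the floor of 16 its difference was at least 1.14 (SE 0.487, adjusted p = 0.186), and replacement 2 stood far over the other arrays. Rrp12, which helps export both subunits, had 28.3, 24.6 and 18.7 against 52.1, 35.4 and 54.0 (0.91, SE 0.276, adjusted p = 0.0725). Pno1, a partner of the late small subunit, had 241.2, 319.5 and 343.5 against 447.1, 606.4 and 429.4 (0.79, SE 0.267, adjusted p = 0.103). Among these 3 genes only Rrp9 has a bound in place of a measured difference.

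Wdr43, Heatr1 and Utp20 are further parts of the early small subunit complex. Wdr43 had 197.9, 204.9 and 211.5 in the controls and 234.5, 364.5 and 370.8 in the replacement samples (0.64, SE 0.272, adjusted p = 0.183). Heatr1 had 137.6, 132.4 and 112.2 against 181, 222.6 and 205.8 (0.64, SE 0.233, adjusted p = 0.124), and Utp20 had 68.4, 71.6 and 63.1 against 96.2, 97.5 and 100.1 (0.53, SE 0.222, adjusted p = 0.176). The groups of these 3 genes lay apart, with replacement 1 the lowest replacement array in each. Nob1, the nuclease that makes the final cut of the 18S RNA, had 59, 62.7 and 75.8 against 76.7, 96.1 and 69.7. It had the smallest difference of the small subunit members (0.33, SE 0.247, adjusted p = 0.471), and replacement 3 lay inside the control range.

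**Figure D2:**
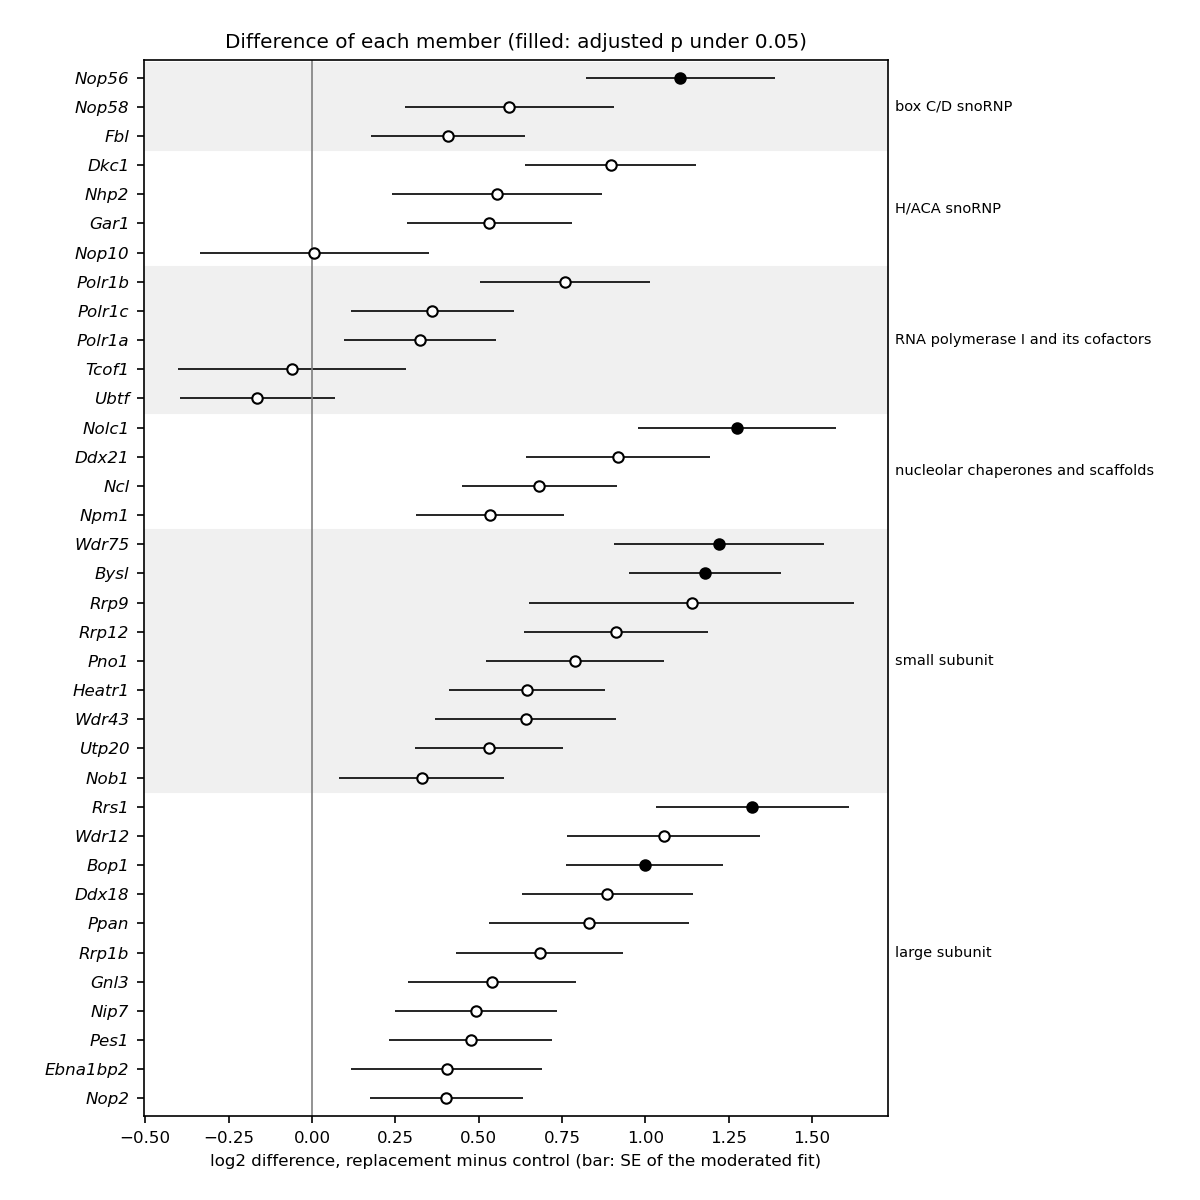
Log2 difference, replacement minus control, of each measured member with the SE of the moderated fit, by role; filled circles mark an adjusted p under 0.05. The 6 filled circles lie between 0.998 and 1.32, and Ubtf and Tcof1 lie under 0.

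Large subunit factors also gave 2 calls, among 11 measured members, where 4.46% of all genes passed upwards. In 10 of the 11 all replacement arrays lay over all controls, against 17.8% of all genes. Rrs1, which brings the 5S particle into the early large subunit, had the largest difference of all members. Rrs1 had 189.2, 175.9 and 179.1 in the controls and 325.1, 588.9 and 500.9 in the replacement samples (1.32, SE 0.290, adjusted p = 0.0221), and its other probe set, which may cross-hybridize by its suffix, gave 1.24. Bop1, Pes1 and Wdr12 form one complex, PeBoW, that is needed to process the 28S side of the precursor. Bop1 had 123.9, 150 and 153.6 against 249.2, 293.3 and 281.3 and rose by 0.998 (SE 0.235, adjusted p = 0.0296).

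The partners of Bop1 did not pass. Wdr12 had 72.2, 95.9 and 95.4 in the controls and 131.2, 226.2 and 173.6 in the replacement samples and lay just outside the threshold (1.05, SE 0.289, adjusted p = 0.0521), while a second probe set of Wdr12, at or near the floor, gave -0.43. Pes1 had 146.1, 197.6 and 177.6 against 214.9, 216.1 and 262.2 (0.48, SE 0.244, adjusted p = 0.270). Whether the 3 partners differ from each other was not tested.

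The helicase Ddx18 had 186.6, 191.0 and 216.3 in the controls and 283.8, 426.3 and 384.8 in the replacement samples (0.89, SE 0.257, adjusted p = 0.0634). Ppan had 52.9, 35.1 and 43.0 against 64.9, 113.0 and 71.6 (0.83, SE 0.300, adjusted p = 0.123), and Rrp1b had 96.7, 69.2 and 70.2 against 128.7, 120.7 and 147.2 (0.68, SE 0.250, adjusted p = 0.128). These 3 genes had groups that did not overlap. Gnl3 (nucleostemin), a nucleolar GTPase of proliferating cells, had 266.3, 239.2 and 253.3 against 300.8, 435.7 and 393.3 (0.54, SE 0.251, adjusted p = 0.223).

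The remaining large subunit members had differences of 0.49 or less. Nip7 had 127.9, 167 and 178.7 in the controls and 199.5, 223.5 and 205 in the replacement samples (0.49, SE 0.242, adjusted p = 0.250). Nop2, an RNA methyltransferase, had 103.2, 108.6 and 120.1 against 130.2, 147.7 and 153.9 (0.40, SE 0.230, adjusted p = 0.323). Both genes had groups apart. Ebna1bp2 had 158.8, 212.2 and 248.4 against 254.6, 319.4 and 198.5, with replacement 3 inside the control range (0.40, SE 0.287, adjusted p = 0.440).

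Seen by role, the median difference was 0.59 for the 3 box C/D proteins, 0.54 for the 4 H/ACA proteins, 0.32 for the 5 members of RNA polymerase I and its cofactors, 0.80 for the 4 chaperones and scaffolds, 0.79 for the 9 small subunit and 0.68 for the 11 large subunit factors. The polymerase group thus had the lowest median of the 6, but a difference between roles was not tested. Of the 24 members with several kept probe sets, 19 had differences over 0 on all of them, and Ebna1bp2, Nop10, Tcof1, Ubtf and Wdr12 had probe sets of opposite sign. For 8 members, Npm1 and Wdr75 among them, the probe set used may read several or related transcripts.

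Further genes of the pathway were taken from 6 lists that hold none of the members, with 142 genes, of which 134 were measured. Of these 9 rose and none fell (6.72% upwards, against the 4.46% given above for all genes). At an unadjusted p under 0.05, 44 were higher and 0 lower, beside 1482 and 1677 of all 12994 genes. Their median difference was 0.41, and 111 of 134 differences were over 0. In 59 of 134 (44%) every replacement array lay over every control array, against 17.8% of all genes. In 6 of 134 every replacement array lay under every control array, against 18.8% of all genes. None of the 9 calls remained without control 1, without control 2 and control 3 together or without replacement 2; 1 list gene passed without replacement 3 and 22 without replacement 1.

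Large subunit factors held 5 of the 9 calls, which is 10.4% of the 48 measured against 4.46% of all genes (list median 0.50). Ftsj3, a methyltransferase of the large subunit, had 40.8, 26.2 and 14.0 in the controls and 66.8, 106.5 and 92.6 in the replacement samples, at least 3.01-fold higher since control 3 lay under the floor (log2 difference at least 1.59, SE 0.337, adjusted p = 0.0193). The GTPase Gtpbp4 had 139.5, 139.4 and 132.6 against 271.4, 417.3 and 386.5 (1.36, SE 0.261, adjusted p = 0.0127) and Nop16 111.7, 129.1 and 120.7 against 285.9, 310.1 and 243.7 (1.24, SE 0.236, adjusted p = 0.0121). In all 3 genes every replacement array was above the controls. Wdr74 had 76.5, 90.6 and 99.3 against 173, 151.5 and 148.2 (0.88, SE 0.236, adjusted p = 0.0476). The helicase Ddx54, whose probe set may cross-hybridize by its suffix, had 273.2, 331.9 and 319.8 against 460.9, 647.8 and 787.2 (1.05, SE 0.281, adjusted p = 0.0478). Both passed narrowly.

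In the list of the small subunit processome, the particle that assembles on the early precursor, 2 of 40 rose, with a list median of 0.46. That is 5%, near the 4.46% of all genes that passed upwards. Noc4l had 100.8, 93.7 and 109.1 in the controls and 178.6, 228.6 and 258.2 in the replacement samples (1.12, SE 0.249, adjusted p = 0.0235), and Nol11 had 78.3, 88.5 and 86.9 against 123.5, 228.5 and 225.4 (1.16, SE 0.309, adjusted p = 0.0470). In both genes replacement 1 was the lowest replacement array. Of 10 late small subunit factors the RNA methyltransferase Dimt1 rose (0.92, SE 0.248, adjusted p = 0.0492; list median 0.26), and of 13 measured genes of the RNA exosome, which trims the precursor, the nuclease Dis3 rose (1.03, SE 0.272, adjusted p = 0.0451; list median 0.28). The single calls of Dimt1 and Dis3 are 10% and 7.69% of their lists. None of 10 snoRNP assembly genes passed (median 0.38, 3 higher at an unadjusted p under 0.05). None of the 13 further genes of RNA polymerase I and its factors passed either, and their median was 0.00, with 2 higher at an unadjusted p under 0.05. Over all 12994 genes, 1482 were higher and 1677 lower at that unadjusted limit. Polr1e, a subunit of the polymerase, had 0.98 (SE 0.306, adjusted p = 0.0816), and Rrn3, which links the polymerase to its promoter, had 0.54 (SE 0.229, adjusted p = 0.184). At the other end 6 of the 13 lay under 0. Ttf1, which ends transcription of the ribosomal DNA, had 37.1, 34.6 and 41.5 in the controls and 14.3, 39.7 and 12.3 in the replacement samples. With 2 replacement arrays under the floor its fall was at least 0.79 (SE 0.387, adjusted p = 0.247), and replacement 2 lay inside the control range. Taf1a, part of the promoter selectivity factor, had -0.44 (SE 0.236, adjusted p = 0.292).

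**Figure D3:**
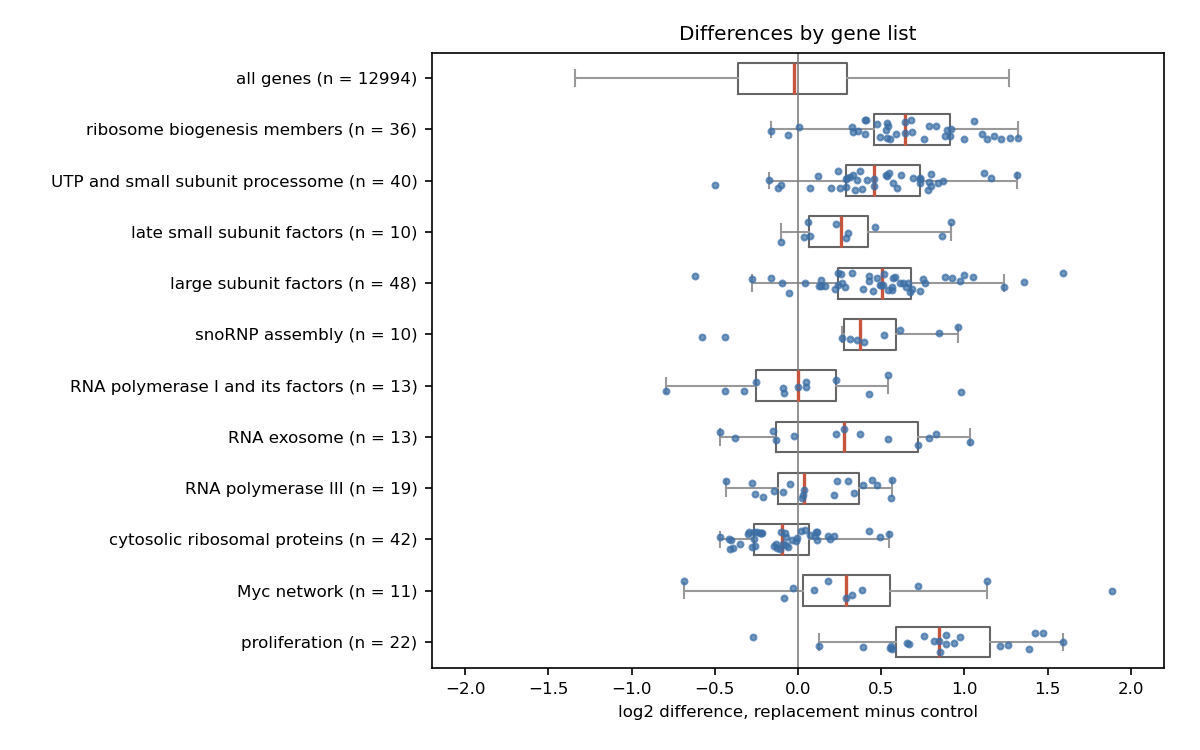
Log2 difference, replacement minus control, by gene list; boxes show the quartiles with the median in red, whiskers reach at most 1.5 times the box length, and dots are single genes (not drawn for all genes). The median is 0.64 for the members, -0.02 for all genes and -0.10 for the cytosolic ribosomal proteins.

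The ribosomal proteins are the parts that the pathway assembles with the RNA. Of 42 measured genes of cytosolic ribosomal proteins none passed in limma, and none had an unadjusted p under 0.05. Their median difference was -0.10, with 13 over and 29 under 0. They differed among the replacement arrays: the median over these genes, relative to each gene's control mean, was 0.31 in replacement 1, -0.65 in replacement 2 and 0.02 in replacement 3, where the members had 0.51, 0.76 and 0.66. Replacement 2 was thus the highest array for the members and the lowest for the ribosomal proteins. Among the replacement arrays it was also the one with the lowest Nhp2 and Nop10. Many ribosomal protein genes have processed pseudogenes, and 43 of the 80 listed names had a probe set paired with that gene alone. For most of the 42 measured genes the probe set used may still read several or related transcripts by its suffix. Of the other names 3 were misspelled in the list and matched no gene. The 19 measured genes of RNA polymerase III, which makes 5S and transfer RNA, had a median of 0.04 with none past the threshold. At an unadjusted p under 0.05, 1 of them was higher, beside 1482 of all 12994 genes.

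**Figure D4:**
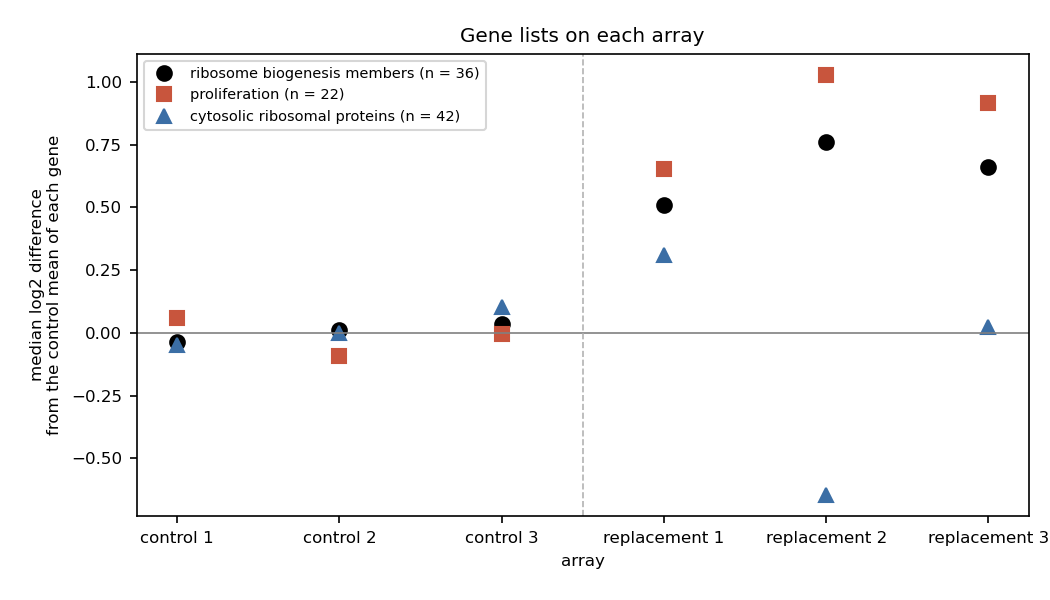
Median log2 difference from each gene's control mean on each array, for the 36 members, 22 proliferation genes and 42 cytosolic ribosomal protein genes. The members lie at 0.51 to 0.76 in the replacement arrays, while the ribosomal proteins lie at 0.31, -0.65 and 0.02.

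In the list of Myc and its network 2 of 11 genes rose (18.2%, against 4.46% of all genes). Myc had 102.8, 104.6 and 104.4 in the controls and 167.3, 316.6 and 222.5 in the replacement samples (1.13, SE 0.294, adjusted p = 0.0429), with the same order of replacement arrays as Nop56 and Wdr75. Mycl, its relative, had 3.6, 5.2 and 31.4 against 50.3, 64.8 and 104.9 and was at least 3.69-fold higher, with 2 of 3 control arrays under the floor (adjusted p = 0.00872). The Myc call ended when either control replicate, replacement 2 or replacement 3 was left out (limma adjusted p of 0.127 to 0.316). That of Mycl ended when either control replicate was left out (adjusted p = 0.233 without control 1 and 0.173 without the other 2 controls). Both calls also ended without the filter on dim probe sets (0.247 for Myc and 0.183 for Mycl). The Myc call ended too without a floor (0.0846), with scaling to array medians (0.057) and with every probe set tested (0.0689), and Mycl had 1.03 (0.0772) with the mean of its probe sets. Max, the shared partner, had -0.03 (adjusted p = 0.957). The list also held Mxi1, a repressor that competes for Max, with -0.68 (adjusted p = 0.117) and all replacement arrays under all controls.

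Proliferation genes were measured in the same arrays. Of 22 genes 5 rose (22.7%, against 4.46% of all genes). In 20 the replacement arrays lay over all controls (90.9%, against 17.8% of all genes), and in Mcm2 they all lay under the controls (-0.27). Rrm2, a subunit of the enzyme that makes deoxyribonucleotides, rose by 1.59 and Cdc20, which starts anaphase, by 1.47. The DNA replication helicase subunit Mcm5 rose by 1.42 and cyclin A2 (Ccna2) by 1.39. The probe sets of Rrm2, Cdc20 and Mcm5 may cross-hybridize by their suffix. The summed intensity of the 23 genes with a probe set was 5959 to 6540 in the controls and 9222 to 12133 in the replacement samples, in the array order of the members, with replacement 2 highest and replacement 1 lowest. The part of cell division in the level of the ribosome biogenesis genes was not tested. Markers of intestinal epithelium were present on all arrays, with a summed intensity of 32670 to 34840 in the controls and 35065 to 45756 in the replacement samples over all 12 genes. Of these 12, Krt19 and Krt20, keratins of the intestinal lining, rose by 1.27 and 1.35 (16.7% of the list, against 4.46% of all genes). The others did not pass. The list median was 0.14, and Fabp1 (-0.32), Fabp2 (-0.12) and Cdx1 (-0.01) lay under 0. Of 8 T and B cell markers with a probe set 5, Cd3e and Cd3d among them, were under the floor on all arrays. The fibroblast and muscle list summed to 1379 in control 1, 318.0 and 340.0 in the other controls and 498.0 to 574.1 in the replacement samples. The 8 markers of macrophages and other myeloid cells summed to 2734 to 3130 in the controls and 1229 to 1921 in the replacement samples. Most of this sum was Csf1r, at 2427 to 2504 and 737.6 to 1271, while Ptprc, which marks all white blood cells, was at 56.4 or less on every array. Csf1r passed downwards (-1.44, limma adjusted p = 0.0143). Cd14, a receptor for bacterial lipopolysaccharide, went the other way and rose by 2.64. Lyz2, Cd68, Adgre1, Tyrobp and Ptprc had differences of -0.61 to -0.07 that did not pass, and their groups overlapped. Lyz2 had 456.4, 172.4 and 142.5 in the controls and 320.3, 222.5 and 232.9 in the replacement samples. The part of these cells in the result was not tested.

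The sexes gave the same direction for most members. Within females (replacement 2 and 3 against control 1) the median member difference was 0.72, with 33 of 36 over 0. All genes had a median of -0.05 there, with 6054 of 12994 over 0. Within males (replacement 1 against the mean of control 2 and control 3) the median member difference was 0.52, with 34 of 36 over 0. All genes had a median of 0.005 there, with 6534 of 12994 over 0. In 32 of 36 members each replacement array lay over the control of its own sex, as in 24.3% of all genes. Each sex holds 1 control replicate, so these are values with no test. With sex as a term in the fit the median member difference was 0.63. Bysl and Nolc1 had similar values in both sexes (1.21 and 1.09; 1.30 and 1.02), whereas Wdr12 had 1.46 in females and 0.46 in males and Rrp12 0.63 and 1.28.

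**Figure D5:**
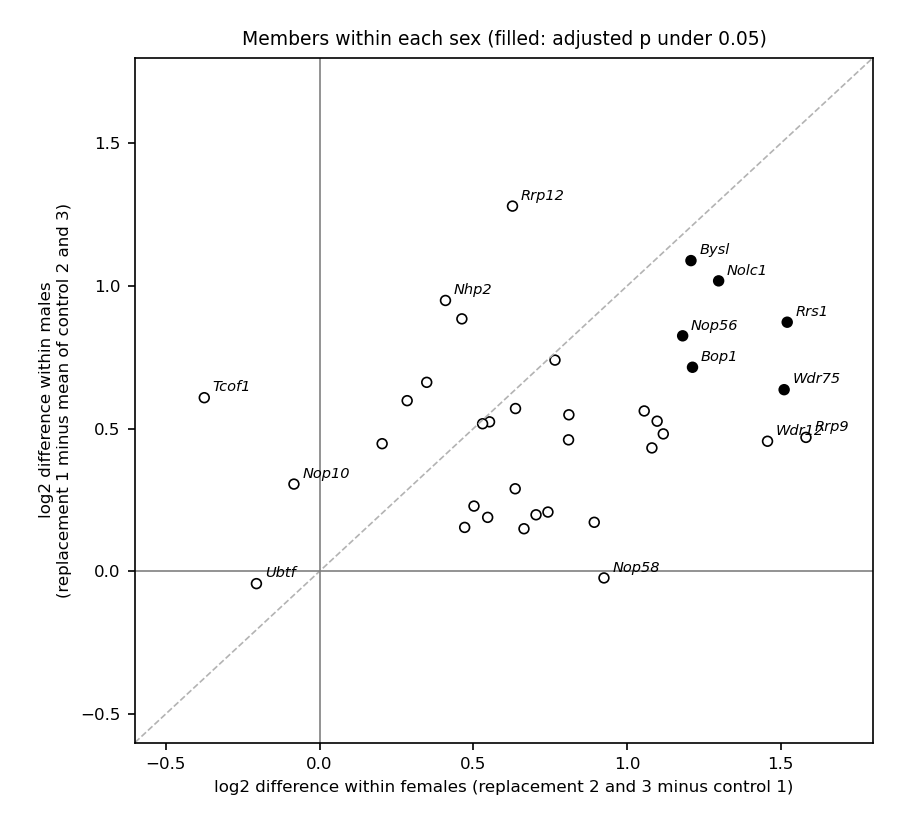
Log2 difference of each member within females (horizontal axis) and within males (vertical axis), with the dashed line at equal values and filled circles for an adjusted p under 0.05 in the pooled fit. Most points lie to the right of 0 and above 0, and Tcof1, Nop58, Nop10 and Ubtf lie outside it.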

How the data were processed

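The authors deposited 1 table of linear intensities, with 45101 probe sets and 6 sample columns. Its values show a scaling by which the mean, leaving out the lowest and the highest 2%, is 100 on each array. The submitters' processing notes name GCRMA and limma, without versions, and do not say how probe sets were summarised. Here intensities under 16 were set to 16 before log2 was taken. Probe sets that reached 16 on 3 or more arrays were used (26630 of them). An array has no read depth, so precision rests on the number of arrays.

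Gene names came from the platform annotation, updated by Entrez identifier (34741 of 34945 probe sets with 1 symbol). The used probe set with the highest mean log2 value stood for its gene, giving 12994 genes. Limma 3.58.1 in R 4.3.3 (lmFit, eBayes) compared 3 replacement with 2 control replicates; all adjusted p are its values, by Benjamini-Hochberg over all genes, with a threshold of 0.05. SEs come from the moderated fit. Where only arrays of the lower group lay under the floor, a fold is a lower bound. The members and lists were chosen with earlier results of these data known. Named genes are the members, Cdh1, Cdh2 and up to 4 genes of each list with the smallest p past the threshold. Ddx54, Polr1e, Rrn3, Ttf1, Taf1a, Max, Mxi1 and Mcm2 were added after their values were seen. So were the marker genes Krt19, Krt20, Fabp1, Fabp2, Cdx1, Cd3d, Cd3e, Csf1r, Cd14, Ptprc, Lyz2, Cd68, Adgre1 and Tyrobp. The scripts were tested on simulated data, and figures were drawn with matplotlib 3.10.9.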

Additional observations from a re-analysis of the deposited data

Results flagged for a closer look

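In 2 members every replacement array of one sex lay over, and every one of the other sex under, the control of its own sex. Tcof1 had a difference of 0.61 within males and -0.37 within females. Nop58 had -0.02 within males and 0.93 within females. Nop10 also had means of opposite sign (0.31 and -0.08), but its female replacement arrays disagreed with each other (-0.58 and 0.41). The sexes were read from Xist and Y-linked transcripts, each holds 1 control replicate, and this difference between the sexes was not tested. No group had enough arrays for a search for outlying samples.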

How the results depend on the processing

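The median member difference stayed between 0.57 and 0.75 in every alternative, and no member past the threshold changed sign in any of the 19 alternatives, but counts of calls moved widely. The 6 members kept their calls in 9 (Wdr75) to 15 (Bysl) of those 19. Counts here are higher members (6), genes of the 6 pathway lists that rose (9), and all genes higher and lower (580 and 605). With all 6 arrays as separate replicates they were 16, 34, 1118 and 1234. With a replicate block on those 6 arrays they were 13, 27, 994 and 1108. Same-numbered arrays had correlations of 0.213, 0.081 and 0.142 in their deviations and not every array correlated best with its own number, so the numbers were not taken as pairs. Without a filter (18193 genes) the counts were 3, 0, 70 and 92, and with a filter at 64 there were 10 members and 17 list genes. Without a floor there were 1 member, 3 list genes and 348 lower genes. Tests of every probe set gave 3 members and 4 list genes by the brightest probe set of each gene, and dimmer probe sets of Ncl and Ddx21 passed besides. Scaling to array medians and control 3 in place of the pair's mean each gave 4 list genes, and leaving out probe sets with shared suffixes gave 5. A trended, robust eBayes gave 11 members. A threshold of 0.1 gave 11 members, 24 list genes, and 905 and 955 genes in all. Without control 2 and control 3 the counts were 0, 0, 3 and 1. Leaving out 1 replicate at a time gave 0 to 12 members, 0 to 22 list genes higher and 0 to 1 lower, 3 to 827 genes higher and 1 to 833 lower; without control 1 there were 8 higher and 3 lower. The cause of these changes was not tested. With 2 control replicates, single calls are not firm. The common direction of the members comes from the same arrays, and members are not replicates. Dim members such as Rrp9 lie near the floor.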
